A study of Drosophila melanogaster with 3 samples.

Results

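The cytosolic ribosomal protein genes were taken as the protein-coding genes of Drosophila melanogaster whose symbol starts with RpL, for the large ribosomal subunit, or RpS, for the small subunit. There were 92 of them among 13945 protein-coding genes of the dm6 annotation, 54 of the large and 38 of the small subunit. The symbols of 5 of the 92 end in -like, and 16 form 8 pairs of duplicated copies named a and b. Blimp-1 is a zinc finger transcription factor, and its binding was mapped by chromatin immunoprecipitation and sequencing (ChIP-seq) in whole embryos aged 10 to 12 h. The embryos came from a transgenic line in which Blimp-1 carries GFP, the green fluorescent protein, at its C terminus, and an antibody against GFP was used. The 3 samples, numbered as biological replicates, formed 1 group, so the comparisons are between groups of genes, between replicates and between lists of peaks. The promoter that drives the fusion is not given in the sources used here, and whole embryos do not show which cells carried a peak.

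Each replicate has a deposited list of 30000 peaks, as has the pooled data of the 3 replicates. A further list of 9515 peaks passed the authors' threshold on the irreproducible discovery rate (IDR) between replicates. A gene was counted as having a peak when the summit, the highest point of a peak, lay within 1 kb of any annotated transcription start site (TSS) of the gene. Where several summits did, the strongest was used. Peaks were ranked by the authors' signal value, with rank 1 the strongest, and the scale of that value is not defined in the sources used here. Since the lists give peaks without read counts, how deeply each replicate was sequenced is unknown.

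Ribosomal proteins assemble with ribosomal RNA into the large subunit, which joins amino acids, and the small subunit, which reads the messenger RNA. Their genes are among the most highly transcribed in growing cells, and loss of 1 copy of many of them gives the Minute phenotype of slow development and thin bristles in flies. Most fly ribosomal protein promoters start transcription at a pyrimidine-rich TCT initiator and depend on the TBP-related factor Trf2, with the DNA-binding factors M1BP and DREF acting at many of them. Blimp-1, the fly relative of mammalian PRDM1, is known as a repressor that is induced by the steroid hormone ecdysone and acts on the timing of ftz-f1 and on tracheal and cuticle development.

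The letters at the start sites are shown first because most summits of these genes lay beside them. The windows run from 15 bases before an annotated TSS to 15 bases from it onward, 5′ to 3′ on the strand of the gene, with coordinates in the dm6 build and sequence from the RefSeq assembly of that build. Capitals mark each match to the TCT initiator, that is CTTT with a C or T on both sides, and transcription starts at the C of CTTT. The windows belong to 7 of the 8 members with the strongest peaks among those whose own TSS was the nearest to the summit. Where a gene has several annotated TSSs, one with the initiator is shown. For RpL7, RpS27 and RpL30 it is not the TSS nearest to the summit.
RpL23A (chr3L:1668640-1668669, minus strand): aactgcccctcagttttCCTTTTcatttct
RpL7 (chr2L:10201085-10201114, plus strand): gtatagcacgtttccggTCTTTCTTTCcct
RpL32 (chr3R:30046147-30046176, minus strand): tcacaccaccagcttttTCTTTTcgcttct
RpS27 (chr3R:25247458-25247487, minus strand): ctgcgatttaccccacttCCTTTTccgtgt
RpS20 (chr3R:20822166-20822195, plus strand): gacaccctgtaaaacttctcttcgttttca
RpL14 (chr3L:8600991-8601020, plus strand): ctgtcaaaaaagtTCTTTCcttcTCTTTCt
RpL30 (chr2L:19009223-19009252, minus strand): atttccgcctgttcttccTCTTTCTTTTgc
In 6 of the 7 windows the initiator lies within 5 bases of the annotated TSS, in a stretch rich in C and T. The choice of TSS favours such a match, so this count is no measure of how common the initiator is. RpS20 has none within 20 bases.

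The word nearest a summit is shown next, since Blimp-1 is known to bind AGTGAAAG and AGCGAAAG. Within 50 bp of the summit, 1 of the 47 members with a peak held either word on either strand, and that was RpL36A. The word DREF binds, TATCGATA, lay within 50 bp of the summit in 5 members, of which 4 are shown. The word M1BP binds, GGTCACAC, lay there in RpLP0. The windows of 30 bases are on the plus strand of dm6, with the word in capitals.
RpL36A, Blimp-1 word (chr2L:8043359-8043388, plus strand): aaataccaaaaAGTGAAAGtggcattgcca
RpL28, DREF word (chr3L:3223034-3223063, plus strand): ggcagggcaacTATCGATAagcatttcgta
RpL37-1, DREF word (chrX:15139406-15139435, plus strand): cgttgcgcgagTATCGATAgtttttgtccg
RpS25, DREF word (chr3R:11216328-11216357, plus strand): gctcgcctgccTATCGATAgttggtggtgg
RpS29, DREF word (chr3R:9778046-9778075, plus strand): atcgtggaaaaTATCGATActgccaccccc
RpLP0, M1BP word (chr3L:22076054-22076083, plus strand): gccatcgaagcGGTCACACtgggtgccgcc
In RpL36A the middle of the word lay 29 bp to the right of the summit on the plus strand, and in RpS25 it lay 14 bp to the left. The 101 bases centred on the RpL36A summit, 1 of the 2 strongest of these genes, are given whole.
RpL36A summit (chr2L:8043295-8043395, plus strand): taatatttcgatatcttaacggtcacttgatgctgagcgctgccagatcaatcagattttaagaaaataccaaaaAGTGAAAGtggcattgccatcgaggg

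Peaks lay at the start sites of ribosomal protein genes more often than at those of protein-coding genes in general. In the IDR-thresholded list, 47 of the 92 members had a summit within 1 kb of a TSS, which is 51.1% (95% Wilson interval 41.0 to 61.1), against 24.9% of all protein-coding genes. The interval covers counting error only. Among the 9515 strongest peaks of each replicate taken alone, 42, 53 and 60 members had such a summit in replicates 1, 2 and 3, against 24.4%, 25.9% and 28.2% of all protein-coding genes. The members' shares were 45.7%, 57.6% and 65.2%, with a mean of 56.2% ± 9.86 (SD, n = 3) against 26.2% ± 1.92 for all protein-coding genes. The share of members was higher than that of all genes in 3 of 3 replicates, and the 2 ranges did not overlap. All protein-coding genes include the 92 members, and the members were chosen with this share already known, so no test was made of it.

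The large subunit had 30 of 54 genes with an IDR-thresholded summit (55.6%, Wilson 42.4 to 68.0), and the small subunit had 17 of 38 (44.7%, Wilson 30.1 to 60.3). Counts from the strongest peaks of replicates 1, 2 and 3 were 26, 33 and 35 for the large subunit and 16, 20 and 25 for the small subunit. The means were 58.0% ± 8.75 for the large and 53.5% ± 11.9 for the small subunit (SD, n = 3 each), and differed by less than either SD. Both SDs include a rise from replicate 1 to replicate 3 that the subunits had in common. Within replicates 1, 2 and 3 the shares were 48.1%, 61.1% and 64.8% for the large and 42.1%, 52.6% and 65.8% for the small subunit. The order of the subunits was thus not the same in all 3. None of the 5 members with symbols ending in -like (RpL22-like, RpL24-like, RpL7-like, RpLP0-like and RpS28-like) had an IDR-thresholded peak within 1 kb. Of the mitochondrial ribosomal protein genes, which serve a separate ribosome, 21 of 73 (28.8%) had one, as had 9 of 48 proteasome subunit genes (18.8%).

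**Figure D1:**
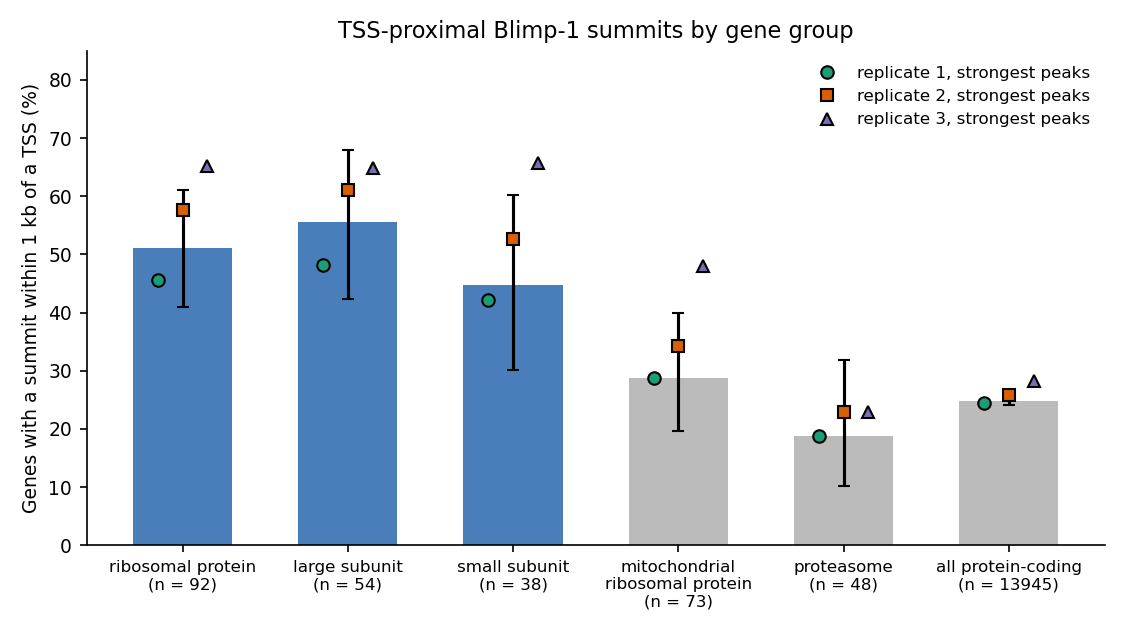
Share of genes (%) with a summit within 1 kb of a TSS, by gene group. Bars give the IDR-thresholded list with 95% Wilson intervals, and points give the 9515 strongest peaks of replicates 1, 2 and 3. The ribosomal protein bar stands at 51.1%, against 24.9% for all protein-coding genes, and replicate 1 is lowest in each of the 3 groups of ribosomal protein genes.

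Most summits lay close to the start site, mainly just upstream of it. Across the 47 members with a peak, the median distance from summit to TSS was 68 bp, against 214 bp over the 3467 protein-coding genes with one. The distance was 150 bp or less in 37 of the 47 members (78.7%), against 35.2% of all genes with a peak. In 40 of the 47 members (85.1%) the summit lay upstream of the TSS, against 75.3% of all genes with a peak. Upstream is counted from the nearest annotated TSS of the gene, which can lie inside it. In RpL35, RpLP0, RpS15Aa and RpS7 the summit so counted lay within the gene. The median offset was −62 bp with quartiles of −130.5 and −21 bp, against quartiles of −307 and −4 bp for all genes. Medians of the distance among the strongest peaks of replicates 1, 2 and 3 were 72, 81 and 76 bp, a mean of 76.3 ± 4.51 bp against 208.5 ± 16.0 bp for all genes (SD, n = 3 each). The replicate medians of members and of all genes did not overlap.

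Large subunit summits were within 150 bp in 26 of 30 genes (86.7%) and small subunit summits in 11 of 17 (64.7%). The median distances of 63 bp for the large and 70 bp for the small subunit lay within a few bases of each other. The tail was short, with 7 of the 47 members (14.9%) beyond 400 bp, against 30.4% of all genes with a peak. Of the summits, 34 were intergenic, 10 lay in an exon and 3 in an intron, a split not given here for all genes. Peaks of members had a median width of 288 bp, against 383 bp for all genes. Among the strongest peaks of the replicates the widths were 396 ± 18.0 bp for members and 410 ± 6.0 bp for all genes (SD, n = 3 each), so there the widths differed by less than the spread between replicates.

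**Figure D2:**
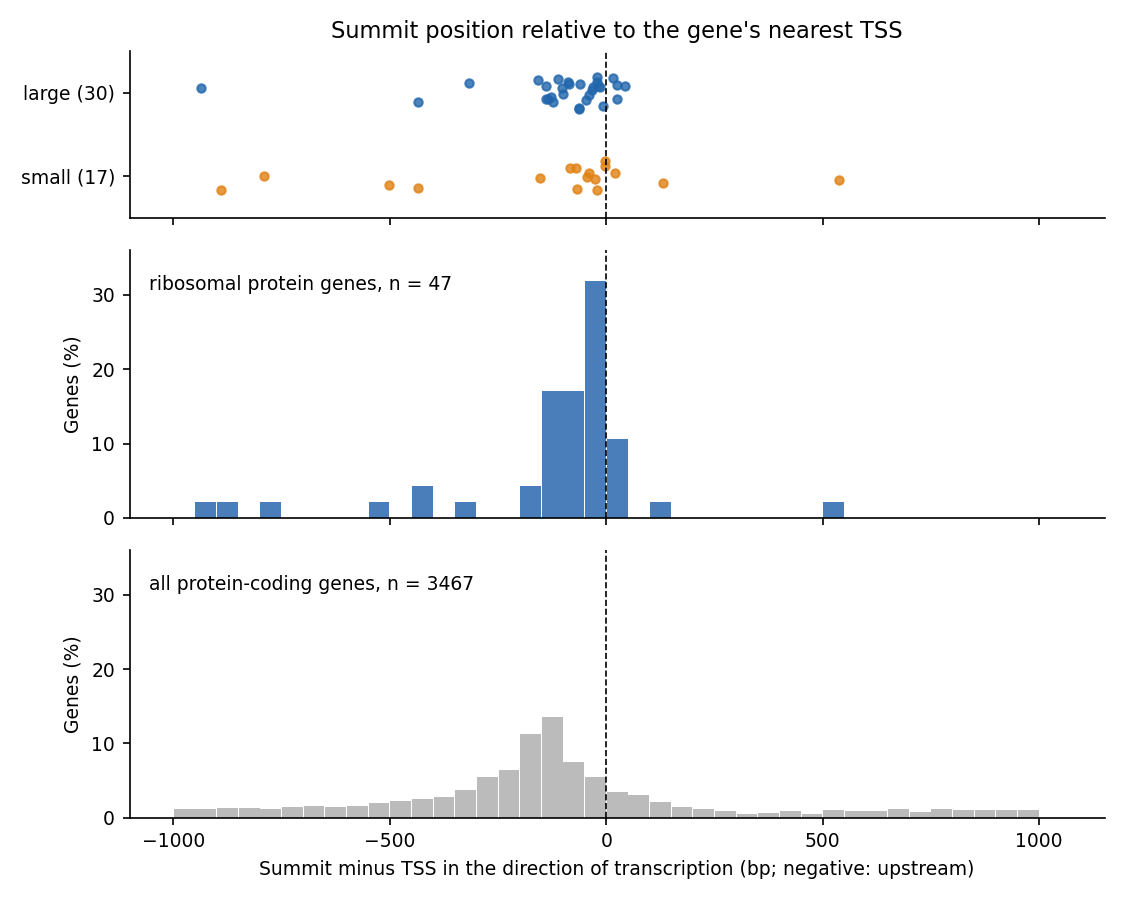
Position of the strongest summit within 1 kb relative to the nearest TSS of the gene (bp, negative values upstream). The top panel shows 1 point per ribosomal protein gene by subunit, with vertical scatter only to separate points, and the lower panels show the share of genes (%) in bins of 50 bp for 47 ribosomal protein genes and for 3467 protein-coding genes. The ribosomal protein summits crowd within 150 bp of the TSS.

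In strength the peaks of these genes ranked close to those of all genes with a peak. The median rank of the 47 members was 3521 of 9515, at 37.0% of the list, against 3357, at 35.3%, for all genes with a peak. Among the strongest peaks of the replicates the median ranks stood at 42.8% ± 6.27 for members and 37.0% ± 1.80 for all genes (SD, n = 3 each). The median rank was 3203.5 for the large and 4053 for the small subunit, at 33.7% and 42.6% of the list. The gap was wider among the strongest peaks of the replicates, at 35.8% ± 3.16 for the large and 55.8% ± 12.3 for the small subunit (SD, n = 3 each), and the replicate values of the subunits did not overlap. Peaks of 2 members stood far above the rest. RpS28a, a protein at the channel where messenger RNA leaves the small subunit, was at rank 9, with ranks 14, 6 and 6 in replicates 1, 2 and 3 (chr3R:30021665-30022457). RpL36A, a large subunit protein near the site where spent tRNA leaves, was at rank 37, with ranks 35, 41 and 35 (chr2L:8042752-8043642). Neither peak was closest to the TSS of the ribosomal protein gene. The summit of the first lay 110 bp from the TSS of Mgat2, a glycosyltransferase gene, and 537 bp downstream of that of RpS28a. As RpS28a is 304 bp long, that summit lay beyond its 3′ end. The second lay 436 bp from the TSS of RpL36A.

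The next 8 members by strength were between ranks 863 and 1990. RpL34b was at rank 863, with ranks 1050, 868 and 743 in replicates 1, 2 and 3, and its summit was 140 bp from its TSS and 129 bp from that of CG8132. RpS28b was at rank 952 (1006, 1036 and 871), with its summit 791 bp upstream of its TSS and 82 bp from that of l(1)G0320. RpL23A, which lies at the exit of the peptide tunnel of the large subunit, was at rank 980 (907, 1367 and 841; chr3L:1668478-1668933). Its summit was 64 bp upstream, and no TSS of another protein-coding gene lay within 1 kb, so it was the strongest peak with a ribosomal protein TSS nearest.

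RpL7 was at rank 1040 (1090, 1248 and 970) with a summit 43 bp into the gene. RpL32, whose transcript is a common reference in fly expression work, was at rank 1161 (1025, 1685 and 1085) with a summit 122 bp upstream. RpS27, a zinc-binding protein of the small subunit, was at rank 1373 (1055, 1371 and 1789), 68 bp upstream. Each of the 3 summits was nearer to the ribosomal protein TSS than to that of the closest coding neighbour, which was Ripalpha at 73 bp, CG7943 at 187 bp and Nup37 at 76 bp. RpS20 was at rank 1583 (2009, 2007 and 1137) with a summit 154 bp upstream, and RpL14 was at rank 1990 (2167, 2051 and 1945) with a summit 22 bp upstream. The RpL14 summit also lay 105 bp from the TSS of Nelf-E, a subunit of the factor that pauses RNA polymerase II.

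The 5 weakest members of the IDR-thresholded list had ranks from 7202 to 9229. RpS12, which flies need for the loss of Minute cells beside normal ones, was at rank 9229, and its summit, 502 bp upstream, was nearer to Adk2. The strongest peak within 1 kb of RpS12 had ranks 8441 and 6991 in replicates 2 and 3, while in replicate 1 it was another summit, 30 bp upstream, at rank 7727. RpS7 was at rank 8173 (8391, 8554 and 6656, of which the first was more than 100 bp from the IDR-thresholded summit) and RpS15Aa at rank 7394 (5636, 6733 and 9048). Both summits lay 4 bp upstream of an annotated TSS inside the gene. RpL35, of the tunnel exit, was at rank 7354 (7540, 10671 and 7275), 60 bp upstream of an annotated TSS inside the gene. RpS19a, whose human counterpart is the gene most often affected in Diamond-Blackfan anaemia, was at rank 7202, with ranks 7501 and 7463 in replicates 2 and 3 and no peak within 1 kb in replicate 1. Apart from that of RpS12, these weak summits lay 60 bp or less from the TSS.

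Many of these peaks were shared with a neighbour. In 35 of the 47 members (74.5%) the summit also lay within 1 kb of the TSS of another protein-coding gene, against 47.6% of all genes with a peak, while no summit lay within 1 kb of 2 members. The member's own TSS was the nearest of all annotated TSSs in 37 of the 47 (78.7%), against 73.1% of all genes with a peak. As shares of all genes these were 40.2% of the 92 members and 18.2% of all protein-coding genes. Where the own TSS was nearest, the median distance was 45 bp and the offsets ran from −434 to 132 bp, with a median rank of 3841. In the 10 others the median distance was 469 bp and the median rank was 2325. The strongest 5 of the 10 were RpS28a, RpL36A, RpL34b, RpS28b and RpL10Ab. For 2 members with a weaker second summit, RpL10Ab and RpL23, that second summit lay 228 and 114 bp upstream of the own TSS, which was then the nearest. This brings the count by any summit to 39.

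Ribosomal protein genes also stood close to other genes more often. Within 1 kb of a TSS, 58 of the 92 members (63.0%) had the TSS of another protein-coding gene, against 42.9% of all protein-coding genes, and on the opposite strand in 59.8% against 36.9%. Among members with such a neighbour, 35 of 58 (60.3%) had an IDR-thresholded summit, against 30.9% of all genes with a neighbour. Among members without one, 12 of 34 (35.3%) had a summit, against 20.3%. The share was therefore higher in ribosomal protein genes within both classes. The 12 members without another coding TSS near the summit were RpL11, RpL17, RpL22, RpL23A, RpL24, RpL30, RpL37-1, RpLP2, RpS10b, RpS23, RpS29 and RpS4. RpL13 and the gene of the factor DREF shared 1 summit at rank 3238, which lay 48 bp from the TSS of RpL13 and 36 bp from that of Dref. RpL28 shared its summit at rank 2956 with eIF1, a factor for start codon choice, at 127 bp from RpL28 and 254 bp from eIF1.

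By place in the ribosome, counts are given for small groups that were chosen after the values had been seen, beside 51.1% of all members and 24.9% of all protein-coding genes. All 3 genes of the stalk that recruits elongation factors had an IDR-thresholded peak: RpLP0 at rank 3559, RpLP1 at 5620 and RpLP2 at 6109. Around the exit of the peptide tunnel 6 of 8 genes had one, namely RpL17, RpL19, RpL22, RpL23A, RpL31 and RpL35, while RpL26 and RpL39 did not. Of the partners of 5S ribosomal RNA, RpL11 had one at rank 3038 and RpL5 had no peak in any list. None of the 3 genes at the messenger RNA entry, RpS2, RpS3 and RpS9, had one, though all 3 had a peak in another list. At the messenger RNA exit 3 of 8 genes had one. None of the 3 genes whose protein is made fused to ubiquitin or a ubiquitin-like protein, RpL40, RpS27A and RpS30, had one, and 2 of them had a peak in another list. Groups of this size do not show whether any place in the ribosome stood apart.

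The replicates differed at these genes, mainly through replicate 1. Of the 47 members with an IDR-thresholded peak, 40 had a summit within 1 kb in the full list of all 3 replicates (85.1%), against 94.4% of all genes with a peak. All 7 others lacked one in replicate 1 (14.9%, against 4.24% of all genes with a peak), and none lacked one in replicate 2 or 3 (0.952% and 0.635% of all genes). They included RpL11, RpL13, RpL31, RpLP0 and RpS19a, which were named after their values had been seen. In replicates 2 and 3 RpL11 had ranks 2876 and 2552, RpL13 had 3541 and 2502, and RpLP0 had 4013 and 3964. RpL31 had 6102 and 6476.

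A peak was called matched when a replicate summit lay within 100 bp of the IDR-thresholded summit. By this measure 35, 46 and 47 of the 47 summits were matched in the full lists of replicates 1, 2 and 3. All 3 replicates matched 35 of them (74.5%), against 89.6% of the 2664 peaks of all genes. Median ranks of the matched peaks were 2995, 3661 and 2729 in replicates 1, 2 and 3. Replicate 3 ranked a peak higher than replicate 2 in 26 of the 35 (74.3%), against 54.3% of all such peaks, and replicate 2 ranked it higher than replicate 1 in 11 (31.4%), against 51.2%. The labels give no batch for the replicates, and why replicate 1 lacks some of these peaks was not tested.

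**Figure D3:**
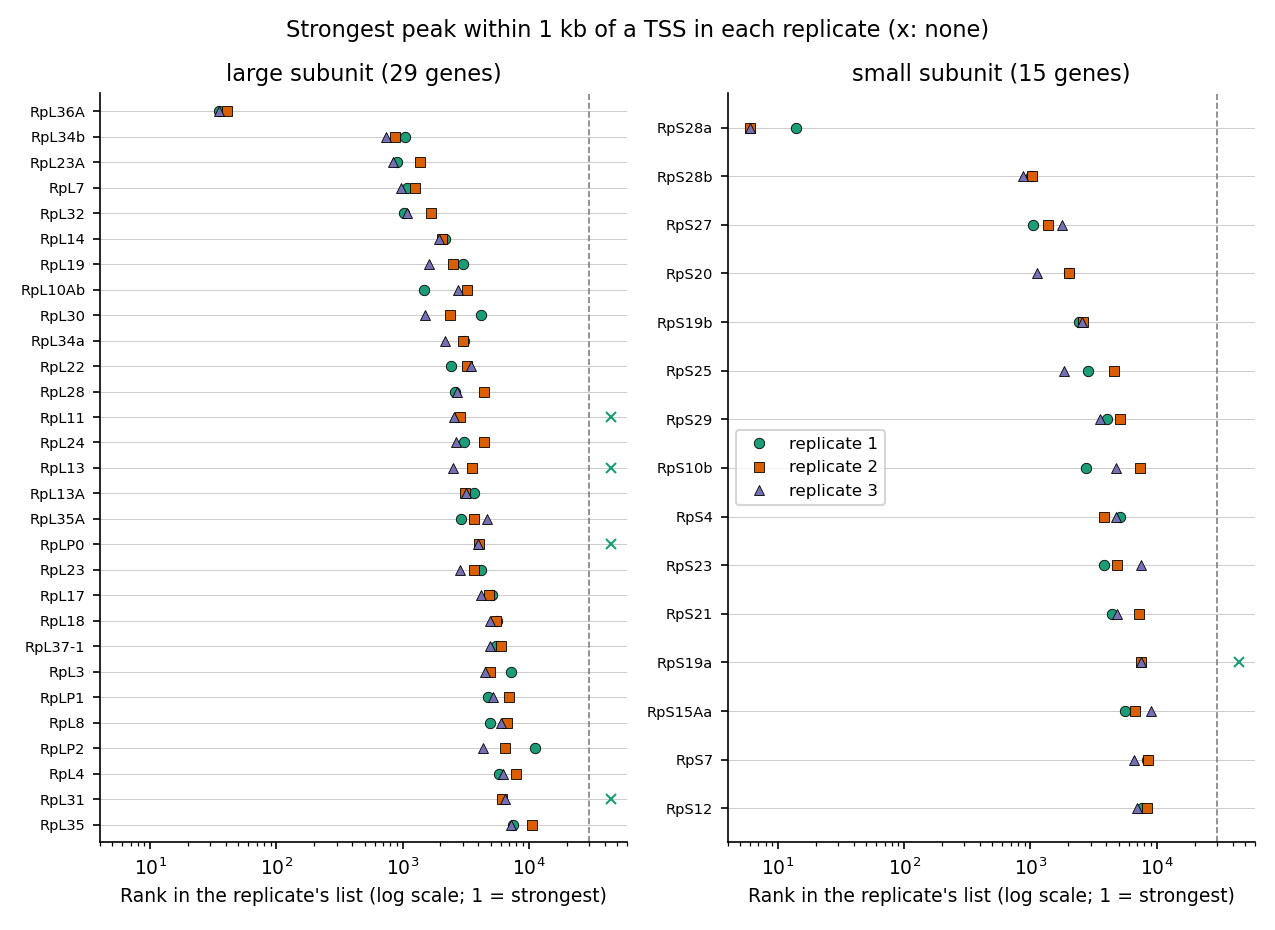
Rank of the strongest peak within 1 kb of a TSS in the full list of each replicate (log scale, 1 the strongest), for 29 of the 30 large and 15 of the 17 small subunit genes with an IDR-thresholded peak, ordered by rank in that list. A cross marks a gene with no peak within 1 kb, and the dashed line marks the end of the lists at rank 30000. All crosses belong to replicate 1, at 5 of the genes drawn.

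Of the 45 members with no IDR-thresholded peak within 1 kb, 32 had a summit within 1 kb in at least 1 other list. In the full lists of replicates 1, 2 and 3, 52, 70 and 76 of the 92 members had one (56.5%, 76.1% and 82.6%), against 39.2%, 42.0% and 44.8% of all protein-coding genes. In the pooled list 61 members had one (66.3%), against 38.1%. The 13 members with none in any list (14.1%, against 47.9% of all genes) were RpL10, RpL10Aa, RpL21, RpL22-like, RpL24-like, RpL37-2, RpL38, RpL5, RpL7-like, RpL9, RpS15Ab, RpS18 and RpS27A.

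In 14 members a peak of the pooled list that had missed the IDR threshold was within 1 kb (15.2%, against 13.3% of all protein-coding genes). In 8 of these all 3 replicates had a peak (8.70%, against 8.06%), so both shares were near the background. The 8 included RpL12, RpL26, RpL39, RpL40, RpL7A, RpS15 and RpS6. The best placed in the pooled list of the 8 was RpL26, at rank 10512. RpS6, the small subunit protein phosphorylated downstream of TOR signalling, was at pooled rank 11017, with ranks 7496, 9945 and 10769 in replicates 1, 2 and 3. Its strongest summit lay upstream of the TSS in the pooled list and in replicates 1 and 3. In replicate 2 the strongest summit of RpS6 lay 59 bp into the gene, so that rank belongs to another summit. In the other 6 (6.52%, against 2.90% of all protein-coding genes) replicates 2 and 3 had a peak within 1 kb and replicate 1 had none. Among them were RpL29, RpLP0-like, RpS13, RpS14b and RpS3. The summits of the lists were not always the same. For RpL29 the offset was 172 bp in the pooled list and −45 and −70 bp in replicates 2 and 3. The best placed of the 6 in the pooled list was RpS14b, at rank 9648.

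Several strong peaks of single replicates were missing from the pooled list. RpL41, the shortest ribosomal protein, had ranks 2169 and 1993 in replicates 1 and 2 and no peak in replicate 3 or in the pooled list. RpL27A had ranks 6480 and 4576 in replicates 2 and 3, and RpL37A had 4777 and 4587, with none in the pooled list. Of the 70 members with a peak in at least 2 replicates, 9 (12.9%) had none in the pooled list, against 11.7% of all such genes, a share near that of the background. In 7 members (7.61%, against 3.89% of all protein-coding genes) the full list of replicate 3 was the only list with a peak. They included RpL27, RpL6, RpS16, RpS24, RpS26 and RpS30, with the strongest at rank 4196 for RpL27. RpL15 and RpS10a had one in replicate 1 alone, at ranks 12876 and 14440 (2.17%, against 3.76%). Members with a summit among the strongest peaks of exactly 1 replicate included RpL26, RpL27, RpL36, RpL39, RpL6, RpS16, RpS24, RpS26, RpS30, RpS3A, RpS6 and RpS9.

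The limit of 1 kb cut through few members. Measured to the nearest summit, the members just inside were RpS19b at 890 bp and RpS28b at 574 bp. The strongest summit of RpL10Ab lay 936 bp upstream, with another 228 bp upstream. Just outside were RpLP0-like and RpL27A, whose nearest summits lay at 1234 and 1339 bp. The 45 members outside had a median distance of 7661 bp to the nearest IDR-thresholded summit, with 5 of them within 2 kb and 15 beyond 10 kb.

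Among the 8 duplicated pairs, in which both copies encode forms of the same protein, the copies often differed. Both copies had an IDR-thresholded peak within 1 kb for RpL34, RpS19 and RpS28. Exactly 1 copy had one in 4 pairs, among them RpL10A, RpS10 and RpS15A, and neither had one for RpS14. A stricter count took a copy only if its own TSS was nearest to its strongest summit. No pair then had both, 5 had exactly 1 and 3 had neither. The 5 included RpL34a, RpS10b, RpS15Aa and RpS19a. Weaker second summits, such as those of RpL10Ab and RpL23 nearest their own TSS, do not enter this count. By this stricter count 5 of 16 copies had a peak (31.2%), against 32 of the 71 members outside pairs and without a -like symbol (45.1%). By the 1 kb count the shares were 10 of 16 (62.5%) and 37 of 71 (52.1%). Letters of the start sites are shown for 4 pairs, in which the initiator is seen within 15 bases at both copies (RpS14), at 1 copy (RpL10A and RpS19) or at neither (RpS10).
RpL10Aa (chr3R:15037351-15037380, plus strand): tacaatacatttcaaattttgtgcttgtag
RpL10Ab (chr3L:11822836-11822865, plus strand): ctaaaaaccgattttcacttCCTTTCtaaa
RpS10a (chr3R:27652745-27652774, plus strand): gaagtttcggtaaatactaatttaagctgg
RpS10b (chrX:19598016-19598045, plus strand): caccgtcttcttcttgtcatcccttccgtt
RpS14a (chrX:7933727-7933756, plus strand): ttgacagctacgtcaacctTCTTTTttgat
RpS14b (chrX:7935157-7935186, plus strand): tgtttttttcTCTTTTagttgctgatcgac
RpS19a (chrX:16637879-16637908, plus strand): ccaacttcacgcgccttgtTCTTTTttccg
RpS19b (chr3R:23933516-23933545, minus strand): acttgccaatcgtccattttgactaaagtc
Of the copies shown, RpL10Ab, RpS10b, RpS19a and RpS19b had an IDR-thresholded peak within 1 kb, and that of RpS19b lay 890 bp upstream. Capitals again mark the initiator, and for RpS14b the TSS shown is the one with the initiator, not the most 5′ one.

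In single replicates the copies kept their order where both could be ranked. RpL34b had ranks 1050, 868 and 743 in replicates 1, 2 and 3, against 3078, 3031 and 2187 for RpL34a. RpS10b had ranks 2767, 7408 and 4768, and RpS10a had rank 14440 in replicate 1 and no peak in the others. RpS15Aa had a peak in each replicate (5636, 6733 and 9048) and RpS15Ab had none. RpS14a and RpS14b, neighbours on X, had ranks of 7732 and 6011 and of 10411 and 12029 in replicates 2 and 3, and neither had a peak in replicate 1. The pooled list went the other way, with RpS14b at rank 9648 and no peak for RpS14a. How the authors treated reads that fit more than 1 copy is not given in the sources used here, and that bears on pairs with near-identical sequence.

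**Figure D4:**
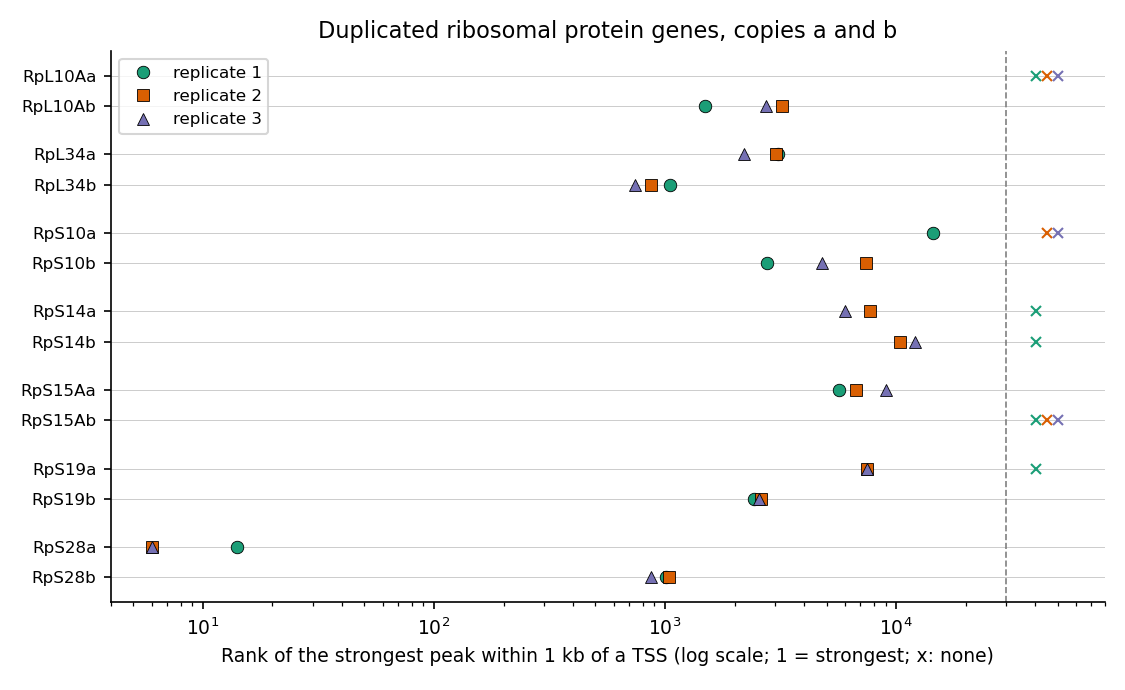
Rank of the strongest peak within 1 kb of a TSS in replicates 1, 2 and 3 (log scale, 1 the strongest) for both copies of 7 of the 8 duplicated ribosomal protein genes. Crosses right of the dashed line at rank 30000 mark replicates with no such peak. RpS28a lies between ranks 6 and 14, while RpL10Aa and RpS15Ab have no peak in any replicate.

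The TCT initiator was common to these genes and rare elsewhere, and its share depended on the window searched. An initiator with its C within 5 bases of an annotated TSS was found in 55 of 92 members (59.8%), against 2.13% of all protein-coding genes. Within 2 bases it was found in 16 members (17.4%), against 0.861%, and within 20 bases in 82 (89.1%), against 7.62%. Within 5 bases it was found in 31 of 54 large and 24 of 38 small subunit genes. Of the members with an IDR-thresholded peak 29 of 47 had it (61.7%), and of those without a peak 26 of 45 (57.8%). Within 20 bases the counts were 45 of 47 with a peak (95.7%) and 37 of 45 without one (82.2%). Where the own TSS was nearest to the summit, 27 of 37 had it within 5 bases (73.0%). Outside the ribosomal protein genes, 242 protein-coding genes had the initiator, and 85 of them (35.1%) had a summit within 1 kb, against 24.9% of all protein-coding genes.

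Words known for Blimp-1 were not common at these summits, nor at the peaks of all genes. Within 50 bp of the summit, AGTGAAAG or AGCGAAAG on either strand lay in 1 of 47 member peaks (2.13%, RpL36A), against 6.01% of the 2664 peaks near any protein-coding TSS. The RpL36A summit was nearer to the TSS of another gene than to its own. In windows of the same width centred 500 bp to either side, the word lay in 0 of the 47 member peaks, against 1.16% and 0.976% of the peaks of all genes. The reverse complements CTTTCACT and CTTTCGCT start with letters that can be part of the initiator, but no member had a Blimp-1 word within 28 bases of a TSS. In promoters, taken from 250 bases before the TSS to 50 bases after it, a Blimp-1 word was found in 2 members (2.17%, RpL23A and RpS10a), against 4.47% of all protein-coding genes. Counts of 1 and 2 are too small to set the members apart from all genes. No match says only that these letters were not in the window.

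The DREF word TATCGATA lay within 50 bp of the summit in 5 of 47 member peaks (10.6%), against 1.39% of the peaks of all genes. These were RpL19, RpL28, RpL37-1, RpS25 and RpS29. In promoters it was found in 28 of 92 members (30.4%), against 10.2% of all protein-coding genes. It was found in 13 of 47 members with a peak (27.7%) and in 15 of 45 without one (33.3%). The M1BP word GGTCACAC was found in the promoters of 15 members (16.3%), against 8.71%, and at 1 summit (2.13%, RpLP0), against 1.01%. The promoter of RpL23A, with the strongest peak at its own TSS, and that of RpL32, at rank 1161, are given from 135 bases upstream of the TSS, with matches to the initiator and to the DREF and M1BP words in capitals.
RpL23A promoter (chr3L:1668640-1668789, minus strand): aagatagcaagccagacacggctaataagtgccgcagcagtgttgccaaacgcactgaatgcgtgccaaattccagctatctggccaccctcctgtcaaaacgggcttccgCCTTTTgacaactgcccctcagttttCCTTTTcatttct
RpL32 promoter (chr3R:30046147-30046296, minus strand): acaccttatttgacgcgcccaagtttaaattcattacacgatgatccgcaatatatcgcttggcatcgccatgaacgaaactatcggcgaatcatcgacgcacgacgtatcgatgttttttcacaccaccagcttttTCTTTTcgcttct
Neither stretch holds a DREF or M1BP word. The bases around the summits of members were 43.6% G and C in the median, against 33.7% for the peaks of all genes, in windows of 101 bases.

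**Figure D5:**
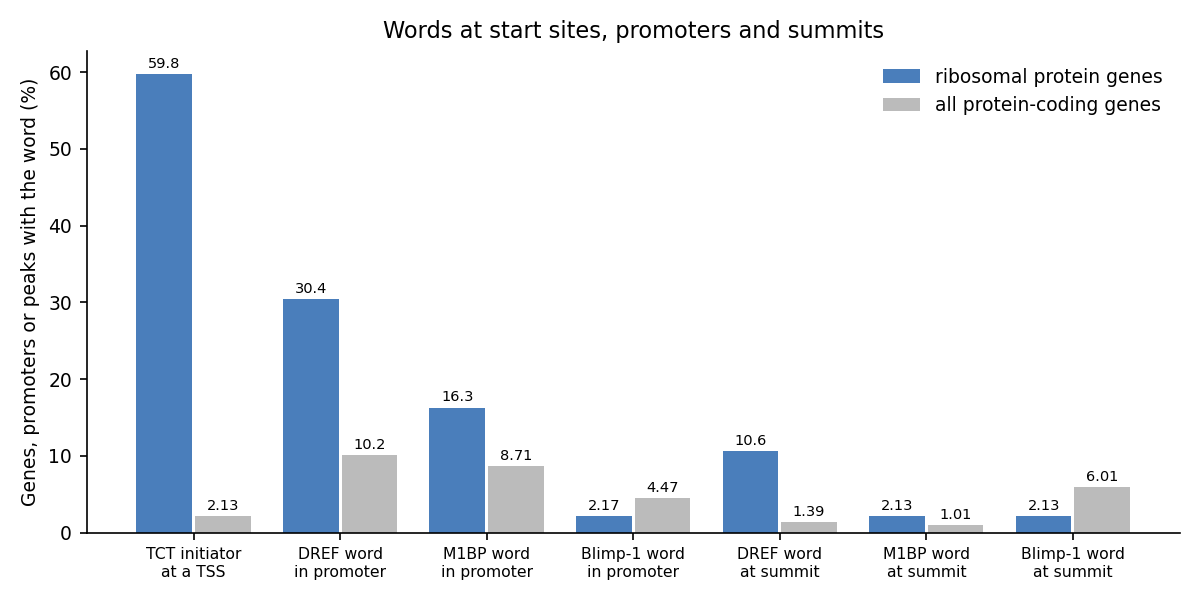
Share (%) of ribosomal protein genes and of all protein-coding genes with a TCT initiator within 5 bases of a TSS or with a DREF, M1BP or Blimp-1 word in the promoter, and share of the 47 and 2664 peaks with each word within 50 bp of the summit. The initiator stands at 59.8% against 2.13% and the DREF word at the summit at 10.6% against 1.39%. The Blimp-1 word at the summit stands at 2.13%, which is 1 peak, against 6.01%.

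Other genes of translation and of ribosome assembly, together with 8 regulators, were described from a list of 63 genes, again by summits within 1 kb of a TSS. Of these, 25 (39.7%) had an IDR-thresholded summit at that distance, against 24.9% of all protein-coding genes, and the own TSS was nearest in 15 of the 25. The regulators, with 6 of 8, raise this share. Both ribosomal proteins with another kind of symbol had one: sta, of the small subunit, at rank 8406, and Rack1, a small subunit scaffold, at rank 6876. Their summits lay 40 and 4 bp upstream of the TSS. In replicates 1, 2 and 3 sta had ranks 17590, 7457 and 8292, and Rack1 had ranks 8694 and 6703 in replicates 2 and 3 and no peak in replicate 1.

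Of 7 elongation factor genes, 3 had a peak: eEF1gamma at rank 2727, eEF5 at 8152 and eEF1alpha1 at 8308. Each had its own TSS nearest. Of 28 initiation factor genes, 9 had a peak, with eIF6, which also keeps the subunits apart, the strongest at rank 563 and eIF3j the next at 1964. The own TSS was nearest in 6 of the 9, though not in eIF6. Nacalpha and bic, the subunits of the complex that meets the nascent chain, both had a peak, at ranks 3861 and 5209. For bic the TSS of another gene was nearer. Of 16 ribosome biogenesis genes 3 had one (18.8%), namely Ns2 at rank 533, Non1 at 3985 and Surf6 at 5141, and in each the TSS of another gene was nearer. Of 8 regulators known at ribosomal protein or growth genes, 6 had a peak: Irbp18 at rank 937, M1BP at 1531, Max at 2814, Dref at 3238, Mnt at 4665 and Trf2 at 7974. For Irbp18, M1BP and Max the TSS of another gene was nearer to the summit. Myc and Xrp1 had no IDR-thresholded peak. The Dref peak was the one shared with RpL13, and neither it nor the Trf2 peak was found in replicate 1.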

How the data were processed

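The lists were used as the authors deposited them, for 3 replicates of 1 group. Alignment was to dm6 and a single control alignment served for calling all replicates, per the deposited notes. Not given in the sources used here are the aligner, the caller of the peaks and the threshold on the IDR. Each deposited list gives a signal value per peak, a score without a defined scale, used only to rank peaks within a list. The deposited −log10 q-value is tied at its highest value for many peaks and was not used. Replicates share the control, so its noise is common to them.

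Gene models were from Ensembl release 115. The strongest peaks of a replicate were its 9515 of highest signal value. Promoter words were searched on both strands and the initiator on the sense strand. Calculations used Python 3.11.15 with numpy 2.4.6, scipy 1.17.1 and matplotlib 3.10.9, and the assignment of summits to genes was tested on simulated data. No test was run, because there is 1 group, and values are described beside those of all protein-coding genes. The members and lists were chosen with earlier results of these data known. Named members were the 10 strongest and 5 weakest with a peak, all a and b copies, the strongest 5 whose summit lay nearest another gene, all without an IDR-thresholded peak, those among the strongest peaks of exactly 1 replicate and those with a Blimp-1 word at the summit. Groups by place in the ribosome, members absent from replicate 1, members without a coding neighbour and members with a DREF or M1BP word were named after their values were seen. The processed values include no sample outside the 3 replicates. A few members and neighbouring genes enter the counts and are not reported here by name.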

Additional observations from a re-analysis of the deposited data

How the results depend on the processing

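Of 67 alternatives computed for 8 results, 54 stayed within 1.5 times the count or within the spread between replicates, and 13 did not. With the stronger part of the IDR-thresholded list (4757 peaks), 30 members had a summit within 1 kb (32.6%, against 15.9% of all protein-coding genes), 10 of them of the small subunit, and 21 had their own TSS nearest, with a median distance of 85.5 bp and a median rank at 51.9% of that list. When the peak had to cover the TSS, 11 small subunit genes were counted and the median distance was 48 bp. The median distance was 62 bp within 500 bp, 102 bp within 2 kb and 83 bp from the most 5′ TSS alone. The median rank stood at 15.9% of the pooled list, which is longer. An initiator within 2 bases was found in 16 members (17.4%, against 0.861% of all genes). For each pair of replicates, IDR-thresholded peaks were kept if both had a summit within 100 bp among their 9515 strongest peaks. This filter left no replicate out of the list itself, which draws on all 3. It gave 35 to 45 members with a summit, with the median rank at 39.9% to 44.2% of the kept peaks. The highest values came from the pair of replicates 2 and 3 (45 members, 48.9%, against 21.5% of all genes). The pair of replicates 1 and 2 gave 35, against 19.9% of all genes. Within 500 bp there were 43 members (46.7%, against 20.5%) and within 2 kb 52 (56.5%, against 31.3%).

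No paired analysis between groups of samples was possible because there is only 1 group. Gene groups share the same replicates and were compared within them without a test. Leaving out the -like symbols and counting only owners of the nearest TSS, with 47 and 37 members, were chosen after seeing the data. Depth is unknown, so a missing peak cannot be set against a limit, and with lists of fixed length an absent peak says only that it ranked below 30000 or was not called.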

Other observations

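Members were unevenly spread over the chromosome arms in their peaks. On 3L 9 of 14 members had an IDR-thresholded summit within 1 kb (64.3%), against 27.2% of all protein-coding genes on that arm, on 3R 15 of 23 (65.2%, against 25.1%) and on X 9 of 14 (64.3%, against 25.05%). On 2L 7 of 19 had one (36.8%, against 23.4%) and on 2R 7 of 21 (33.3%, against 24.3%). The 1 member on chromosome 4 had none. The share of members was above that of all genes on the 5 large arms. These arms were looked at after the values had been seen.

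Few pooled-list summits lay around some members. Within 100 kb of the TSS the median was 48 summits for members and 49 for all protein-coding genes. Members with 5 or fewer were RpL10, RpL10Ab, RpL15, RpL21, RpL38, RpL5 and RpS3A (7.61%, against 3.86% of all genes), and of these RpL10Ab had an IDR-thresholded peak.

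Ribosomal protein genes often carry small nucleolar RNAs (snoRNAs), which guide the modification of ribosomal RNA, in their introns. An annotated snoRNA lay inside 28 of 92 members (30.4%), against 0.602% of all protein-coding genes. Of the 28 hosts, 19 had an IDR-thresholded summit within 1 kb (67.9%), against 45 of 84 hosts among all protein-coding genes (53.6%). Of the 64 members that were no hosts, 28 had one (43.8%), against 24.7% of all genes that were no hosts. The members make up a large part of all hosts, so the 2 groups of hosts are not independent.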
